A study of Homo sapiens with 44 samples.

Results

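The comparison described here is SAHA against vehicle in het1 xenograft tumours, taken as 4 tumours given SAHA (replicates 1, 2, 3 and 6) and 4 given DMSO (replicates 2, 3, 4 and 5), out of 44 libraries in the series. All 8 tumours grew from A549 cells, a human lung adenocarcinoma line, of the genotype labelled het1. The series text describes the altered lines as isogenic to parental A549 and truncated in the TAZ2 domain of p300, a lysine acetyltransferase and transcription coactivator, so the SAHA and DMSO tumours compared here carry the same truncation. Treatment lasted 4 weeks. Parental (WT) tumours given SAHA (n = 4) or DMSO (n = 4) for the same time served to ask whether a change differed between lines. The comparison of het1 (n = 4) with WT (n = 4) tumours collected at day 30 defined the genes that set the lines apart without treatment. That fit also held day 30 tumours of the lines labelled het2 (n = 4) and homo (n = 4), which shared its estimate of the spread. het1 is a single line, the labels do not say whether each library is a separate animal, and p-values therefore measure the spread between these libraries. No source used here gives the dose, the route or the host strain.

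SAHA (vorinostat) blocks the zinc-dependent histone deacetylases, enzymes that remove the acetyl groups which p300 and its paralog CBP place on histones and other proteins. Cells exposed to such inhibitors gain histone acetylation within hours, and genes with little prior activity are often reported among those that rise. In lung adenocarcinoma cells such as A549, the redox regulator NRF2 is permanently active because its inhibitor KEAP1 is mutated, and the enzymes it drives are therefore abundant before any treatment.

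The libraries held 62808551 to 78503508 gene counts in the SAHA tumours and 71138830 to 75615568 in the DMSO tumours. Levels are given as CPM, the counts scaled to 1000000 per library after TMM scaling, a correction for library composition. A gene was called when its adjusted p (edgeR quasi-likelihood test, Benjamini-Hochberg over all 22586 genes tested) was under 0.05. On the first principal component of the 8 het1 libraries, which held 36.2% of the variance, all SAHA tumours lay on one side and all DMSO tumours on the other. The epithelial keratins KRT8 and KRT18 averaged 2093 and 1383 CPM in SAHA tumours against 2072 and 1395 CPM in DMSO tumours, and AKR1B10, abundant in A549, averaged 1076 against 2495 CPM. SFTPB, a marker of alveolar type II cells, was too low to be tested.

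Markers of host tissue were mixed, and the counts of these human genes do not say whether host or tumour cells gave them. Called were 2 raised and 1 lowered of 12 fibroblast markers, 1 raised of 8 endothelial markers and 0 of 7 myeloid markers. Among all genes tested 7.68% were raised and 9.15% lowered. The summed level of the 12 fibroblast markers was 176 to 256 CPM in SAHA tumours and 126 to 147 CPM in DMSO tumours, so the groups did not overlap. That of the 8 endothelial markers tested, of 12 listed, was 3.795 to 4.803 CPM against 2.675 to 3.626 CPM. That of the 7 myeloid markers tested, of 13 listed, was 13.6 to 17.7 CPM against 13.2 to 17.9 CPM. PDGFRB and THY1, both found on stromal cells, rose 1.98-fold and 1.76-fold, whereas PDGFRA, a fibroblast receptor, fell by 1.06 on the log2 scale with groups that overlapped. ESAM, an endothelial junction protein, rose 2.51-fold at levels under 1 CPM in all 8 libraries. The part of host tissue in the other changes was measured only through these markers. Some defining markers of macrophages and T cells were at or near 0: C1QA and CD2 had 0 counts in all 16 treated libraries, and C1QB and CD3D had 2 and 3. Others were expressed. Of 11 lymphocyte markers 4 were tested and 1 was called raised, against 7.68% of all genes tested. The summed level of those tested was 3.558 to 4.133 CPM in SAHA tumours and 2.873 to 3.236 CPM in DMSO tumours, without overlap. In bulk tissue, fewer cells of a type and less RNA per cell cannot be told apart. With the mean level of the fibroblast, endothelial and myeloid markers as a covariate, 3033 genes were called in het1 and 2560 of them were among those called without it. PDGFRB, THY1 and ESAM were then no longer called (adjusted p = 0.0714, 0.291 and 0.0937). They are themselves among the markers averaged, so the loss of their calls was partly built in. The covariate also separated the het1 groups, at 0.471 to 0.661 (mean log2 CPM) in SAHA tumours and 0.172 to 0.406 in DMSO tumours. Adjusting for it can therefore also remove an effect of treatment. THY1 also lost its call without SAHA replicate 1 (adjusted p = 0.0645) or DMSO replicate 5 (adjusted p = 0.0509).

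SAHA changed 3801 of the 22586 genes tested (16.8%) in het1 tumours. It raised 1734 (7.68%) and lowered 2067 (9.15%), and the shapes of the rises and falls differed. The raised genes had a median log2 fold change (log2FC, SAHA over DMSO) of 0.59, and 437 of them (1.93% of genes tested) rose at least 2-fold. The lowered genes had a median of -0.29, and 130 (0.576% of genes tested) fell at least 2-fold. The median over all genes tested was 0.0165. The 4 SAHA libraries all lay above the 4 DMSO libraries at 2678 genes (11.9%) and all below them at 2795 genes (12.4%), and 30.1% of genes had an unadjusted p under 0.05.

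Lowered genes were the more abundant ones in DMSO tumours, whose values also enter the comparison that picked them. The median level of lowered genes in DMSO tumours was 44.1 CPM, against 5.12 CPM for raised genes and 5.64 CPM for all genes tested. Under 1 CPM there were 75 of 2067 lowered genes (3.63%), 474 of 1734 raised genes (27.3%) and 7501 of 22586 genes tested (33.2%). Of the 437 genes raised at least 2-fold, 291 had a mean under 1 CPM over the 8 libraries. Among genes over 100 CPM, 5.72% of 2082 rose and 18.8% fell. Among genes of 1 to 5 CPM, 412 of 3614 rose (11.4%) and 136 fell (3.76%). Low counts also limit what can be called, since a small change passes the test more readily in an abundant gene. Longer protein-coding genes fell more often: 6.81% of those spanning under 10 kb were lowered, 11.3% of those of 10 to 30 kb, 14.4% of those of 30 to 100 kb, 17.4% of those of 100 to 300 kb and 17.3% of those over 300 kb. The share raised was between 8.31% and 11.5% in all 5 length classes. These shares are descriptions across genes, which are not independent replicates.

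**Figure D1:**
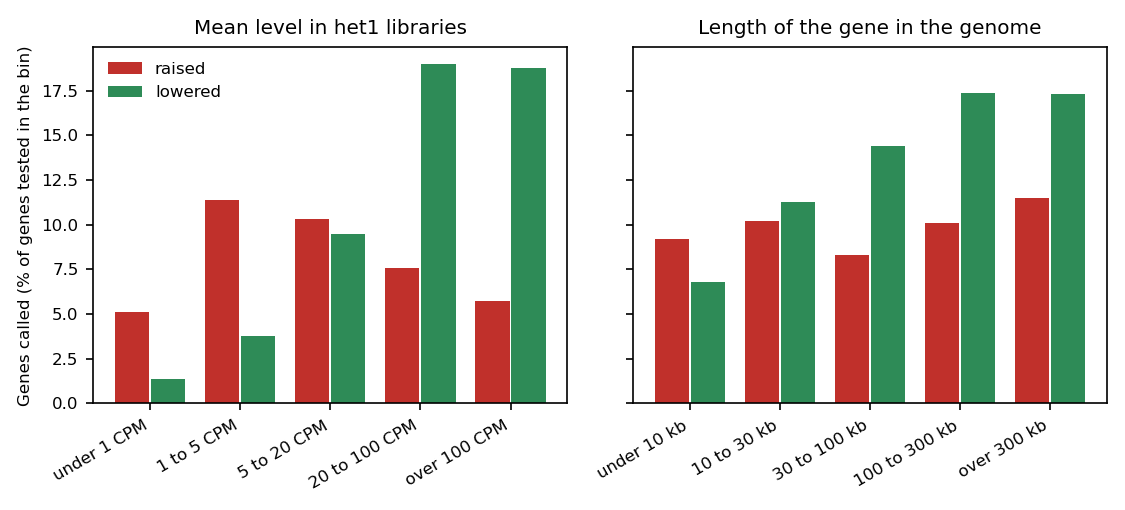
Share of tested genes called raised (red) or lowered (green) under SAHA in het1 tumours, as a percentage of genes in each bin. The left panel bins genes by mean level over the 8 het1 libraries (CPM) and the right panel bins protein-coding genes by length in the genome (kb). The lowered share is 1.34% under 1 CPM and 18.8% over 100 CPM, and 6.81% under 10 kb and 17.3% over 300 kb.

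The gene with the greatest rise among those averaging at least 1 CPM was PPM1E (ENSG00000175175, chromosome 17, 58755869 to 58985176 of hg38), a serine/threonine phosphatase that acts on PAK and CaM kinases. It had 4.20, 3.85, 6.09 and 6.04 CPM in SAHA tumours against 0.530, 0.520, 0.715 and 0.494 CPM in DMSO tumours. The groups stood far apart, with an 8.89-fold rise (log2FC 3.15, SE 0.26, adjusted p = 5.8e-07). HPCAL4 (ENSG00000116983, chromosome 1, 39678648 to 39691689), a neuronal calcium sensor, had 4.07, 3.02, 4.12 and 3.67 CPM in SAHA tumours against 0.614, 0.493, 0.569 and 0.548 CPM in DMSO tumours. NGFR (chromosome 17, 49495293 to 49515017), the p75 neurotrophin receptor, had 4.34, 2.61, 3.89 and 3.69 CPM against 0.809, 0.466, 0.424 and 0.631 CPM. SLC17A7 (chromosome 19, 49429401 to 49442360), the vesicular glutamate transporter VGLUT1, had 6.12, 4.98, 5.20 and 4.68 CPM against 1.12, 0.835, 1.35 and 1.11 CPM. Each SAHA library exceeded each DMSO library at these genes, and the rises were 6.67-fold for HPCAL4, 6.23-fold for NGFR and 4.75-fold for SLC17A7 (adjusted p = 3.4e-07, 7.73e-06 and 5.8e-07).

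The other greatest rises ran between 4.41-fold and 3.77-fold. They were PXDN, a peroxidase that cross-links collagen IV (4.41-fold), CORO1A, an actin-binding coronin best known in leukocytes (3.98-fold), GALNT16, which starts mucin-type O-glycosylation (3.98-fold), and RPS6KA2, a ribosomal S6 kinase downstream of ERK (3.97-fold). HAP1, a trafficking protein that binds huntingtin, rose 3.9-fold, the netrin receptor UNC5B 3.82-fold, the Mediator subunit MED12L 3.8-fold and the kelch protein KLHL29 3.77-fold. PXDN was the least secure: its SAHA libraries had 15.4, 8.07, 14.3 and 18.8 CPM against 4.20, 0.876, 4.98 and 2.76 CPM in DMSO tumours. It lost its call when any of 6 of the 8 libraries (SAHA replicates 1, 3 and 6, DMSO replicates 2, 3 and 5) was left out, with an adjusted p of up to 0.0985, and with the host marker covariate (adjusted p = 0.132).

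Promoter windows of 2 of the greatest rises are shown because HPCAL4 and SLC17A7 each have 1 window in the RefSeq table (GRCh38.p14), from 250 bases before the start to 50 after it. Capitals mark GGGCGG, the core of the GC box bound by SP-family factors, on either strand. HPCAL4 is chr1:39691384-39691683 and SLC17A7 is chr19:49441478-49441777, both read 5′ to 3′ on the minus strand.
HPCAL4: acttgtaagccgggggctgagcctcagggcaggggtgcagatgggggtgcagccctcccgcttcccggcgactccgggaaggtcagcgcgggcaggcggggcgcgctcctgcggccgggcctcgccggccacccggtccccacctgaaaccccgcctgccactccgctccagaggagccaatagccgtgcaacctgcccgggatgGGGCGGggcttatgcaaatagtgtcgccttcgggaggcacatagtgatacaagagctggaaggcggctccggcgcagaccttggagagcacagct
SLC17A7: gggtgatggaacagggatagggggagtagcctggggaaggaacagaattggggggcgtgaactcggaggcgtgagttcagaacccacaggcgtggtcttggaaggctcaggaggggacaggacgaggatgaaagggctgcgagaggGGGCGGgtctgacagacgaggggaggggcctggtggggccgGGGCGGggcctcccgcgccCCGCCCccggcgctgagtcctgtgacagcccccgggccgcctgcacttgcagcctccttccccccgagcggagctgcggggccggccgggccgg
Among 9121 tested genes that matched 1 promoter window by symbol, 6155 (67.5%) held GGGCGG, as did 605 of 807 raised genes (75%) and 765 of 1073 lowered genes (71.3%). A match is a description of the letters in the window and not evidence of binding.

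The greatest falls included membrane transporters and metabolic enzymes of liver, gut and kidney. SERPINB11 (chromosome 18, 63647579 to 63726432), a serpin of the ovalbumin clade, had 0.328, 0.307, 0.272 and 0.253 CPM in SAHA tumours against 1.28, 2.60, 1.51 and 3.62 CPM in DMSO tumours (7.71-fold lower, adjusted p = 1.94e-05). OR51E1 (chromosome 11, 4643420 to 4655488), an olfactory receptor also expressed outside the nose, had 0.879, 1.19, 0.605 and 0.712 CPM against 3.44, 7.34, 4.57 and 9.36 CPM (7.24-fold lower). Both genes varied more between DMSO tumours than between SAHA tumours, without overlap. NEB (chromosome 2, 151485336 to 151734487), which encodes the giant actin-filament protein nebulin, was the most abundant of those described here, with 21.8, 17.2, 15.8 and 16.1 CPM in SAHA tumours against 61.0, 68.5, 46.2 and 90.2 CPM in DMSO tumours (3.75-fold lower, adjusted p = 0.00207).

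Among the remaining falls were membrane transporters of organic anions and dicarboxylates, SLC17A4 (5.69-fold lower), SLC17A3 (3.77-fold) and SLC13A2 (3.49-fold). Enzymes among them were BAAT, which conjugates bile acids (4.71-fold lower), and the glutathione transferase GSTA1 (4.07-fold). The adhesion protein VSIG1 was 3.33-fold lower and the adhesion receptor ADGRG5 3.12-fold lower. GSTA1 has close paralogs that can share its reads. SLC13A2 lost its call without DMSO replicate 5 or SAHA replicates 1 or 3 (adjusted p up to 0.0599) and with the host marker covariate (adjusted p = 0.0655).

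**Figure D2:**
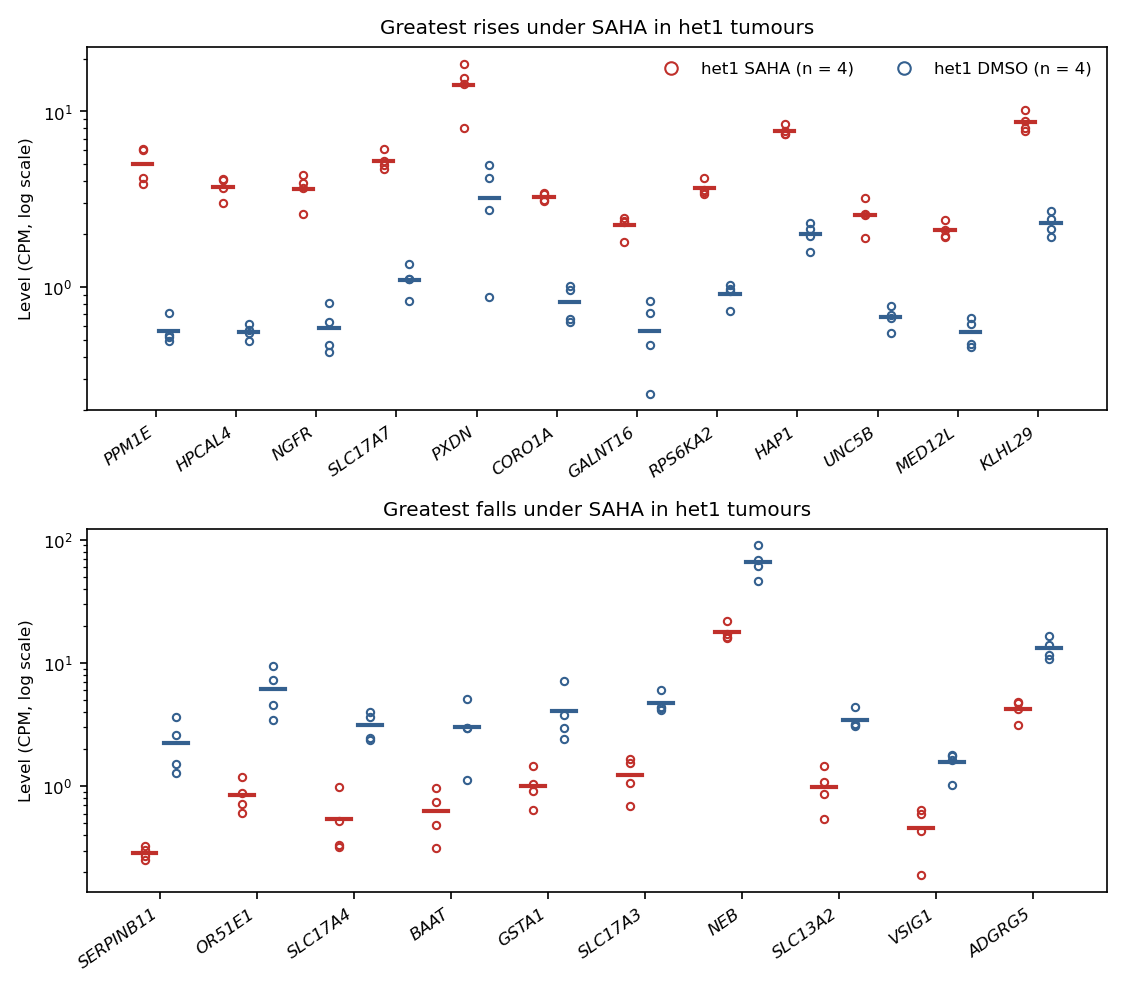
Level in each library (CPM, log scale) of the 12 greatest rises (top) and 10 of the 12 greatest falls (bottom) among called genes averaging at least 1 CPM, with het1 SAHA libraries in red left of het1 DMSO libraries in blue. Circles are libraries (n = 4 per group) and bars are means. The groups do not overlap at any of these genes, which the choice of the genes required. PPM1E stands at 3.85 to 6.09 CPM in SAHA tumours and 0.494 to 0.715 CPM in DMSO tumours.

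The 6 raised genes with the smallest p were WDR19, COTL1, HAP1, HPCAL4, CALCOCO1 and SLC17A7, of which HAP1 (adjusted p = 1.79e-07), HPCAL4 and SLC17A7 are also among the greatest rises. WDR19 (chromosome 4, 39182404 to 39285810), a subunit of the intraflagellar transport complex of cilia, had 31.9, 32.2, 31.4 and 28.4 CPM in SAHA tumours against 16.6, 16.5, 17.5 and 17.0 CPM in DMSO tumours (1.83-fold, adjusted p = 1.16e-07). COTL1, an actin-binding protein of the coactosin type, rose 2.20-fold (adjusted p = 1.59e-07). CALCOCO1, a coiled-coil coactivator and autophagy receptor, had 94.5, 94.9, 94.1 and 85.8 CPM against 56.0, 57.1, 59.3 and 52.8 CPM (1.64-fold). On the falling side, CPLX2 (chromosome 5, 175796310 to 175884020), a complexin that clamps vesicle fusion, had 455, 481, 431 and 502 CPM in SAHA tumours against 807, 931, 763 and 875 CPM in DMSO tumours (1.81-fold lower, adjusted p = 9.32e-07). KCTD15, a BTB domain protein that inhibits AP-2 factors, was 1.71-fold lower, and PARP14, an ADP-ribosyltransferase induced by interferon, 1.48-fold lower. SIRPA, the receptor for CD47, was 1.63-fold lower, the actin regulator MTSS1 1.54-fold lower and the tetratricopeptide protein TTC27 1.52-fold lower.

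At the RNA level, EP300, CREBBP and every zinc-dependent deacetylase gene but HDAC3 were not called changed. EP300 (chromosome 22, 41091786 to 41180079) had 118, 119, 136 and 117 CPM in SAHA tumours against 136, 131, 126 and 118 CPM in DMSO tumours, and the groups overlapped (log2FC -0.06, SE 0.08, adjusted p = 0.637). Gene-level counts do not show whether the transcripts are truncated. CREBBP, which encodes CBP, averaged 79.0 ± 3.34 CPM against 80.3 ± 5.37 CPM (SD, n = 4 each, adjusted p = 0.854). Of 13 lysine acetyltransferase genes, 1 rose and 4 fell, the falls being above the share of all genes lowered (9.15%). They included KAT2A (GCN5, 1.27-fold higher) and the p160 coactivators NCOA3 and NCOA1 (1.19-fold and 1.15-fold lower). Of 17 deacetylase and corepressor genes, 1 rose and 2 fell, near the shares of all genes tested (7.68% raised and 9.15% lowered). HDAC3, the catalytic subunit of the NCoR complexes, rose 1.14-fold (adjusted p = 0.0314), the corepressor scaffold SIN3A was 1.23-fold lower and MTA2 of the NuRD complex 1.09-fold lower. The HDAC3 call was lost in 6 of 8 fits that left out 1 library, those without DMSO replicates 2, 4 or 5 or SAHA replicates 1, 2 or 6 (adjusted p up to 0.111). The MTA2 call was lost in 4, those without DMSO replicate 3 or SAHA replicates 1, 2 or 3 (up to 0.0759). Both were lost with the host marker covariate (adjusted p = 0.101 for HDAC3 and 0.0644 for MTA2), and that of MTA2 without a filter on low counts (0.162).

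Genes that cell line studies commonly list as raised by HDAC inhibitors rose in part. Of 27 tested, 8 rose and 1 fell, where 7.68% of all genes tested rose and 9.15% fell. Their median log2FC was 0.31 against 0.0165 over all genes tested. In WT tumours the median of the list was -0.0619, against -0.00768 over all genes tested. None of its genes was called there, but neither was any of the 22586 genes tested. H1F0 (chromosome 22, 37805093 to 37807436), the linker histone H1.0 of resting cells, had 521, 498, 520 and 508 CPM in SAHA tumours against 383, 356, 368 and 331 CPM in DMSO tumours (1.42-fold, adjusted p = 2.12e-05). HSPA2, a heat shock protein of the HSP70 family, rose 1.39-fold, and DHRS2, a short-chain dehydrogenase, rose 2.77-fold (adjusted p = 0.000385). CDKN1A, the CDK inhibitor p21, had 76.6, 64.8, 73.3 and 74.7 CPM against 59.2, 51.5, 49.4 and 51.8 CPM, which did not overlap but missed the threshold (log2FC 0.45, adjusted p = 0.121). It is named after its values were seen, and it was called with DESeq2 (adjusted p = 0.0352) and in a fit of the 8 het1 tumours alone (adjusted p = 7.31e-05), which called 13 of the list as raised. Of 14 histone genes with polyadenylated transcripts, 5 rose and none fell. Besides H1F0 they included H1FX (1.37-fold) and H2AFJ (1.25-fold), both replication-independent histones.

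Genes listed as lowered by HDAC inhibitors did not show a common direction. Of 18 tested, 2 rose and 1 fell, where 7.68% of all genes tested rose and 9.15% fell, and the median was 0.0407. Thymidine kinase TK1 rose 1.28-fold and MYC 1.12-fold, while TMPO, a lamin-binding protein, was 1.20-fold lower. The TK1 call was lost without DMSO replicate 2 or SAHA replicates 1 or 6 (adjusted p up to 0.0541) and the TMPO call without DMSO replicate 3 or SAHA replicates 1 or 2 (up to 0.104) or with the host marker covariate (0.085). The MYC call was lost without any library but SAHA replicate 1 (adjusted p up to 0.155). Of 24 G1/S genes 1 rose and none fell, and the same counts held for 24 G2/M genes. The log2FC was positive for 16 of the 24 G1/S genes and for 23 of the 24 G2/M genes. The G1/S list had a median log2FC of 0.0497 in het1 and 0.335 in WT, and the G2/M list one of 0.215 in het1 and 0.344 in WT. Of 10 CDK inhibitor and G1 cyclin genes, 2 fell and none rose, among them cyclin D3 (CCND3), which was 1.48-fold lower.

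NRF2 targets fell together. Of 24 tested, 17 were lowered and none raised, all 24 had a negative log2FC, and the median was -0.40 against 0.0165 over all genes tested, of which 9.15% were lowered. AKR1B10 (chromosome 7, 134527592 to 134541408), an aldo-keto reductase that clears reactive aldehydes, had 1020, 1368, 849 and 1068 CPM in SAHA tumours against 2085, 2977, 2185 and 2732 CPM in DMSO tumours (log2FC -1.21, SE 0.19, adjusted p = 0.000851). GCLM (chromosome 1, 93885205 to 93909456), the modifier subunit of the enzyme that limits glutathione synthesis, had 67.5, 66.7, 82.2 and 81.5 CPM against 124, 132, 116 and 138 CPM. Its catalytic partner GCLC had 150, 165, 160 and 166 CPM against 277, 287, 258 and 275 CPM. The SAHA tumours lay below the DMSO tumours throughout, with both subunits 1.71-fold lower. The steroid and carbonyl reductases AKR1C1, AKR1C2 and AKR1C3 were 2.08-fold, 1.96-fold and 1.88-fold lower, but they are near-identical paralogs whose shared reads the counting could divide. ME1, a malic enzyme that supplies NADPH, was 1.25-fold lower.

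In WT tumours the same 24 genes had a median log2FC of 0.0170. The interaction tests the difference between the SAHA effects in het1 and WT. It was called with a more negative change in het1 for 12 of the 24, against 2.71% of all genes tested. It was -1.31 for AKR1B10 (adjusted p = 0.0154), -0.82 for GCLM (adjusted p = 0.00186) and -0.79 for GCLC (adjusted p = 0.00506). GCLM averaged 127 CPM in het1 DMSO tumours and 89.0 CPM in WT DMSO tumours. Its mean in het1 SAHA tumours, 74.5 CPM, lay below that of WT DMSO tumours, a difference that was not tested. The summed level of the 24 targets in DMSO tumours overlapped between the lines, at 20980 to 24560 CPM in het1 and 20500 to 23910 CPM in WT. The number of NRF2 targets lowered was between 13 and 16 when 1 library was left out and 13 with the host marker covariate.

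**Figure D3:**
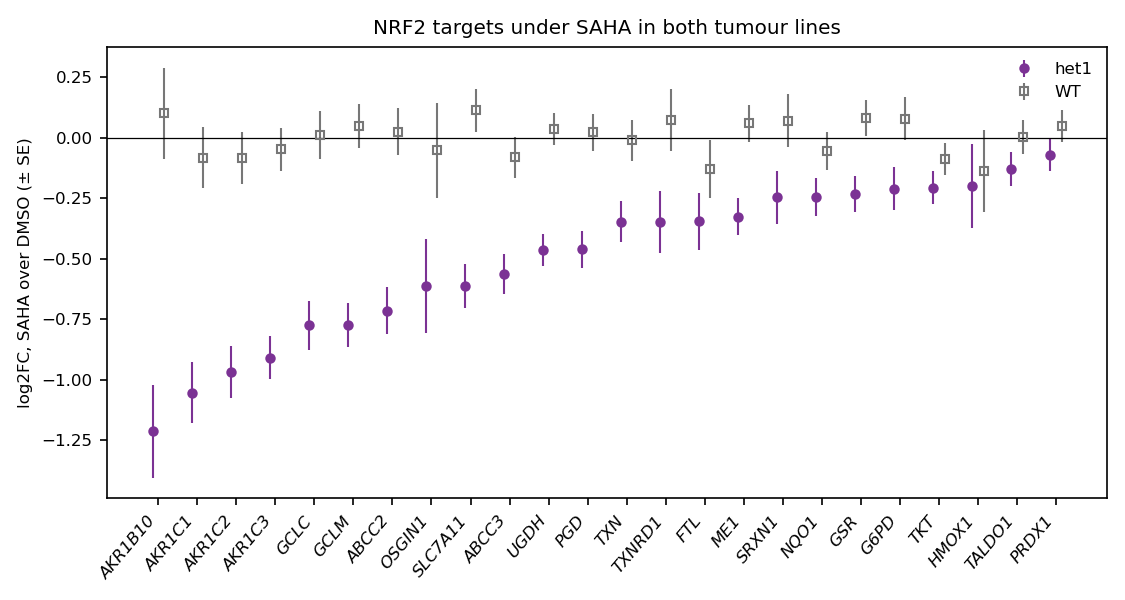
Change of 24 NRF2 targets (log2FC, SAHA over DMSO, with bars of 1 SE) in het1 tumours (filled circles) and WT tumours (open squares), ordered by the het1 value. All 24 het1 values are below 0, and AKR1B10 is the lowest at -1.21. The WT values have a median of 0.0170.

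The promoter windows of GCLM and ME1 are shown as NRF2 targets with a match to TGACNNNGC, the core of the antioxidant response element to which NRF2 binds with small MAF proteins, in capitals on either strand. They were chosen after the search. GCLM is chr1:93909381-93909680 and ME1 is chr6:83431002-83431301, both read 5′ to 3′ on the minus strand.
GCLM: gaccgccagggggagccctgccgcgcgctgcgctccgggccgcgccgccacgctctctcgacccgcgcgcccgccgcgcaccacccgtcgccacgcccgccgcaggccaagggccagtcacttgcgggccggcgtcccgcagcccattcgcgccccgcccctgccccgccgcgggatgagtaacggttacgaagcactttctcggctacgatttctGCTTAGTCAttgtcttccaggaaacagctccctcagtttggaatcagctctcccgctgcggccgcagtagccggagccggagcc
ME1: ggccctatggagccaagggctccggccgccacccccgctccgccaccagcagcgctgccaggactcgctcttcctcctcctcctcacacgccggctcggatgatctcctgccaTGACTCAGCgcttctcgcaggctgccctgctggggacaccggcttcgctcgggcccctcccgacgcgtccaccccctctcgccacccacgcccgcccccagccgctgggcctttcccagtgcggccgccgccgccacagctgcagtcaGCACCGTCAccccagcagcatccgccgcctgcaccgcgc
No match in these 4 windows overlapped a match to the other motif searched. TGACNNNGC was held by 1389 of 9121 windows (15.2%), by 115 of 807 of raised genes (14.3%) and by 176 of 1073 of lowered genes (16.4%).

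The counts of the lists that follow stand against 7.68% of all genes raised and 9.15% lowered, and in a list of about 20 genes 1 or 2 calls either way are near those shares. Of 20 MYC-linked ribosome biogenesis genes, 8 fell and 3 rose, with a median of -0.15. The pre-rRNA processing factor UTP20 was 1.43-fold lower. Nucleolin (NCL) had 554, 542, 561 and 605 CPM in SAHA tumours against 731, 778, 729 and 713 CPM in DMSO tumours (1.30-fold lower, adjusted p = 0.000167), and the pseudouridine synthase DKC1 was 1.24-fold lower. MYC was among the 3 that rose. The 25 cytosolic ribosomal protein genes had a median of 0.0779, between -0.0361 and 0.176.

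Of 21 mucin and gut or lung lineage genes, 5 fell and 1 rose (median -0.27). The falls included the nuclear receptors HNF4G, with 15.9, 15.8, 16.2 and 17.1 CPM in SAHA tumours against 25.4, 29.9, 25.8 and 26.3 CPM in DMSO tumours, and HNF4A (1.34-fold lower), which control liver and gut genes. Of 25 interferon-stimulated genes, 5 fell and 1 rose, with a median of -0.41 in het1 and -0.45 in WT. IFIT2, an RNA-binding antiviral protein, was 1.61-fold lower, its relative IFIT3 1.67-fold lower and the oligoadenylate synthetase OAS3 1.33-fold lower. The 4 IFIT3 values in SAHA tumours were 7.64, 10.2, 5.75 and 8.78 CPM against 13.3, 17.0, 14.7 and 8.88 CPM, so 1 DMSO tumour, replicate 5, lay within the SAHA range, as it did for OAS3. Leaving out SAHA replicates 1 or 3 or DMSO replicate 3 ended the calls of IFIT3 (adjusted p up to 0.0604) and OAS3 (up to 0.0583). Both calls were also lost in a fit of the 8 het1 tumours alone (adjusted p = 0.0553 for IFIT3 and 0.0621 for OAS3) and without a filter on low counts (0.0625 and 0.0662), and that of IFIT3 with the host marker covariate (0.0641).

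Of 22 autophagy and lysosome genes, 7 rose and 2 fell, the falls being at about the share of all genes lowered (9.15%). The LC3 protein MAP1LC3B rose 1.26-fold and the proton pump subunit ATP6V0D1 1.32-fold, while the cargo receptor SQSTM1 (p62), itself driven by NRF2, had 342, 298, 341 and 363 CPM in SAHA tumours against 486, 436, 454 and 499 CPM in DMSO tumours (1.39-fold lower, adjusted p = 0.000104). Among 20 genes of the TGF-beta and BMP response, 3 rose and none fell. The BMP targets ID3 and ID1, inhibitors of helix-loop-helix factors, rose 1.93-fold and 1.19-fold, and the matrix protein TGFBI rose 1.40-fold. The TGFBI call was lost in 6 of 8 fits without 1 library, those without any of the DMSO replicates or SAHA replicates 1 or 3 (adjusted p up to 0.0767), and with the host marker covariate (adjusted p = 0.0827). The ID1 call was lost without DMSO replicate 3 (0.0524) or SAHA replicate 3 (adjusted p = 0.0554).

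Adhesion and matrix genes were mixed. Fibronectin (FN1), a matrix glycoprotein used as a mesenchymal marker, had 441.5, 769, 549.4 and 492.9 CPM in SAHA tumours against 1118, 1566, 1143 and 1562 CPM in DMSO tumours (2.39-fold lower, adjusted p = 0.000754). Of 18 mesenchymal genes, FN1 was the 1 that fell and TGFBI the 1 that rose, and the median was 0.353. Of 17 epithelial genes, 2 rose and 3 fell: the tight junction protein CLDN4 was 1.67-fold higher, E-cadherin (CDH1) 1.47-fold lower and CLDN1 1.30-fold lower. Of 18 matrix proteases and inhibitors, 3 rose and 1 fell. The rises were the membrane-type protease MMP15 (1.5-fold), the inhibitor TIMP2 (1.39-fold) and urokinase PLAU (1.82-fold), whose call was lost in 7 of 8 fits, those without any library but DMSO replicate 5 (adjusted p up to 0.114), and with the host marker covariate (adjusted p = 0.0702).

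Signalling genes downstream of EGFR and ERK were also split, with 3 of 19 raised and 4 lowered. ERRFI1, which inhibits EGFR, rose 1.45-fold and the EGFR ligand AREG 1.69-fold, while the ETS factor ETV4 was 1.24-fold lower. Of 20 immediate early genes, 2 rose, near the share of all genes raised (7.68%). They were the phosphatase DUSP1, with 83.2, 57.6, 96.0 and 81.5 CPM in SAHA tumours against 45.7, 34.7, 34.6 and 50.5 CPM in DMSO tumours, and the zinc finger factor KLF6 (1.24-fold). Of 16 YAP and TAZ targets, AJUBA and NUAK2 fell (1.58-fold and 1.47-fold) and CRIM1 rose (1.44-fold).

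**Figure D4:**
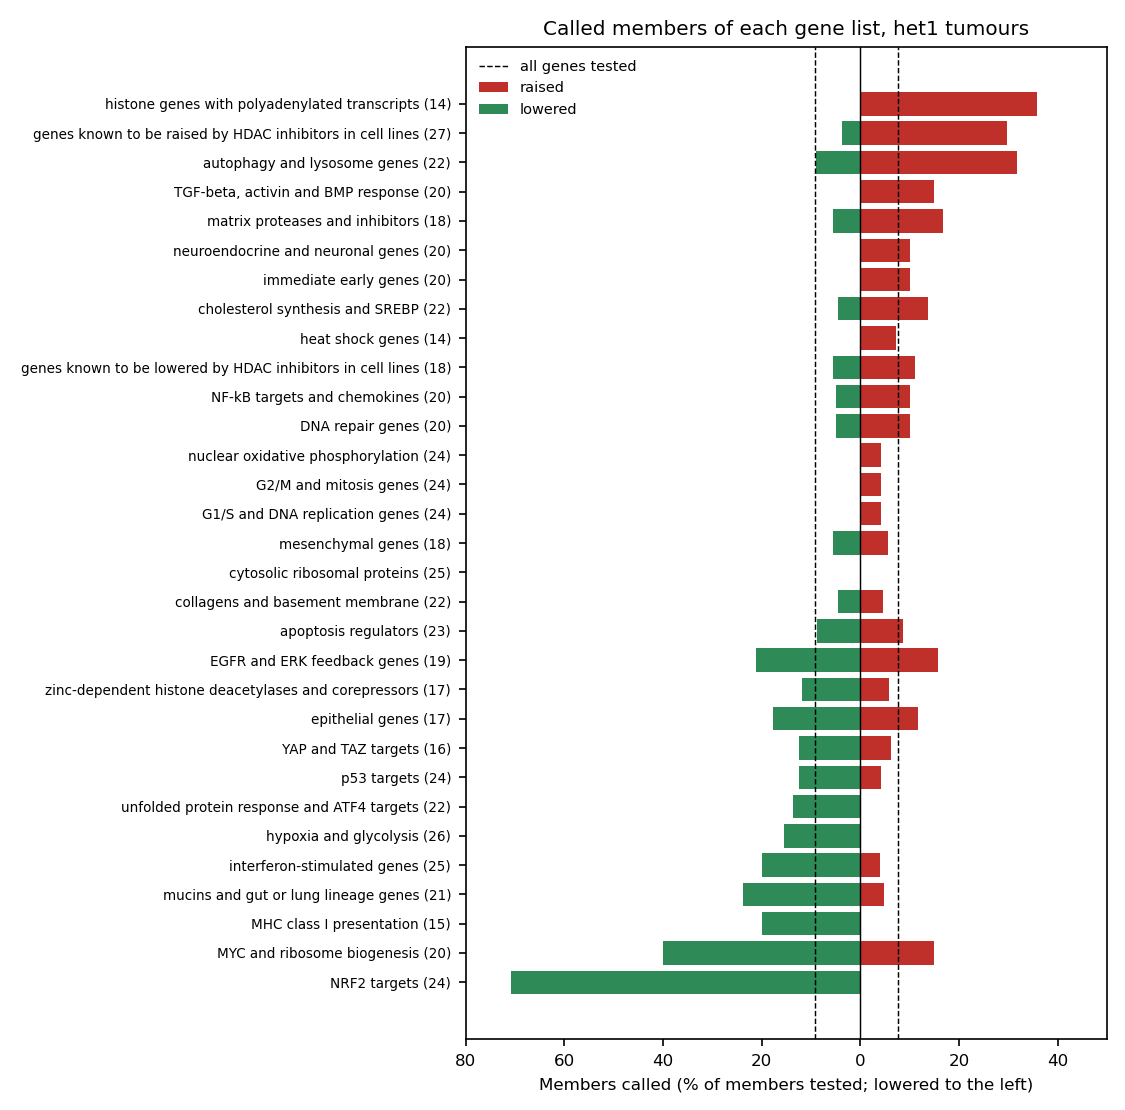
Members of each gene list called raised (red, right) or lowered (green, left) under SAHA in het1 tumours, as a percentage of the members tested, for the lists of pathways with at least 14 members tested (number in brackets). Dashed lines mark the share of all genes tested, 7.68% raised and 9.15% lowered. The NRF2 targets have the longest bar to the left (17 of 24 lowered), and histone genes with polyadenylated transcripts have the longest to the right (5 of 14 raised).

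In WT tumours no gene was called under SAHA by the edgeR quasi-likelihood test, and 1911 of 22586 genes (8.46%) had an unadjusted p under 0.05. DESeq2 called 151, and leaving out WT DMSO replicate 3 gave 170 by edgeR, WT SAHA replicate 4 gave 27, and WT DMSO replicate 2 or WT SAHA replicate 6 gave 1 each. The median log2FC in WT of the 1734 genes raised in het1 was 0.0303, with 998 positive and 727 negative, and that of the 2067 genes lowered in het1 was -0.0130, with 905 positive and 1161 negative. Median SDs of log2 CPM per gene were 0.144 and 0.149 in the het1 SAHA and DMSO tumours and 0.183 and 0.171 in the WT SAHA and DMSO tumours. The interaction was called for 1066 genes (4.72%), of which 455 (2.01%) changed more positively and 611 (2.71%) more negatively in het1, and 19.8% of genes had an unadjusted interaction p under 0.05. It was called for 416 of the 1734 raised genes (24%) and 580 of the 2067 lowered genes (28.1%), so for most genes called in het1 a difference between the lines was not shown. The interaction count was 542 without het1 SAHA replicate 1, 690 without het1 SAHA replicate 3, 605 and 700 without het1 DMSO replicates 3 and 5, 572 and 1677 without WT SAHA replicates 3 and 6, and 634 without WT DMSO replicate 7.

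The genes with the smallest interaction p included several of those with the smallest p in het1. WDR19 averaged 16.5 CPM in WT SAHA tumours and 17.6 CPM in WT DMSO tumours, and its interaction was 0.96 (adjusted p = 8.81e-06). CALCOCO1 followed (0.78, adjusted p = 6.66e-05), with AMOT, an angiomotin that binds YAP (1.6), and FLRT3, a cell adhesion protein (0.96). More negative in het1 were CPLX2 (-0.97, adjusted p = 7.09e-05), KCTD15 (-0.80), the kinase LRRK1 (-0.59) and the cohesin subunit STAG1 (-0.75). HPCAL4 averaged 0.0525 CPM in WT SAHA tumours and 0.00711 CPM in WT DMSO tumours, few counts that gave a WT log2FC of 2.62 (SE 0.68, adjusted p = 0.209) and an interaction of 0.11 (adjusted p = 0.958).

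**Figure D5:**
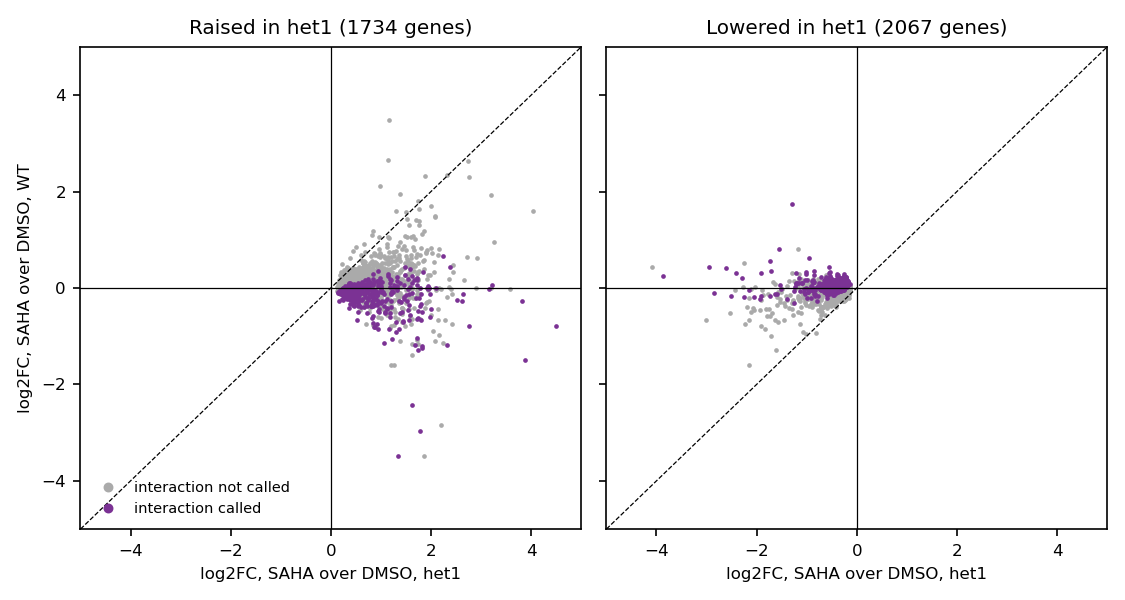
Change under SAHA (log2FC, SAHA over DMSO) in het1 tumours (x axis) and WT tumours (y axis) of the 1734 genes raised (left) and the 2067 genes lowered (right) in het1. Purple points are the genes whose interaction was called (416 and 580) and the dashed line marks equal change. The WT medians are 0.0303 for raised and -0.0130 for lowered genes.

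Whether SAHA reduced the differences between het1 and WT tumours was asked of 2304 tested genes that were at least 2-fold higher in het1 than in WT at day 30 and 1718 that were at least 2-fold lower. The day 30 differences themselves covered 10.5% of 22533 genes for higher and 7.95% for lower levels in het1. Of the genes higher in het1, 352 rose further under SAHA (15.3%) and 61 fell (2.65%), against 6.6% raised and 9.67% lowered among the 18564 other genes. Their median log2FC was 0.26 in het1 and -0.0146 in WT. Of the genes lower in het1, 157 rose (9.14%) and 210 fell further (12.2%), with a median of -0.0195. The first count, 352, was 234 with the host marker covariate and 228 without DMSO replicate 5, and the last, 210, was 136 without SAHA replicate 3.

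Named members show all 4 patterns. PPM1E, HPCAL4, NGFR and SLC17A7 were already higher in het1 than in WT at day 30 (log2FC 2.68, 3.99, 3.95 and 4.03) and rose further. Genes higher in het1 that fell under SAHA were TINAG, a basement membrane antigen (2.22-fold lower), the semaphorin SEMA3D, with 8.54, 9.77, 7.27 and 8.29 CPM in SAHA tumours against 18.7, 21.9, 14.6 and 19.4 CPM in DMSO tumours, the clock gene PER3 (2.03-fold lower) and the complement subunit C8G (log2FC -0.98). Genes lower in het1 that rose were UNC5B, the tensin TNS4, the adhesion protein IGSF9 and C11orf86. TNS4 had 6.09, 7.71, 6.38 and 4.92 CPM in SAHA tumours against 1.93, 1.25, 1.97 and 2.14 CPM in DMSO tumours, and it averaged 98.9 CPM in WT tumours at day 30, so its rise left it far below that level. SERPINB11, OR51E1, SLC17A4 and BAAT, lower in het1 at day 30, fell further: OR51E1 averaged 171 CPM in WT SAHA tumours and 184 CPM in WT DMSO tumours.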

How the data were processed

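RNA was measured by strand-specific polyA RNA sequencing of 44 A549 cultures and xenograft tumours, 16 of them tumours given SAHA or DMSO. The authors deposited raw counts per gene; per the submitters' processing notes bcl2fastq, HISAT2, HTSeq and hg38 were used, with versions, strand setting, annotation release and handling of host reads not given in the sources used here. Reads of an antisense or overlapping gene, and host reads that match human genes, therefore cannot be told apart from a gene's own.

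The deposited counts of the 16 treated tumours were fitted together in 4 groups with edgeR 4.0.16 (R 4.3.3; quasi-likelihood, robust, TMM scaling, low counts removed by filterByExpr), which left 22586 of 58721 genes. The comparisons were SAHA against DMSO in het1, the same in WT, and their difference (interaction), with Benjamini-Hochberg adjustment and a threshold of 0.05. The day 30 tumours of WT, het1, het2 and homo were fitted likewise in 4 groups on 22533 genes. Coordinates came from GENCODE 29, in which 58721 of 58721 IDs matched. Promoter windows came from RefSeq (GRCh38.p14). The model was tested on simulated data.

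The comparison, gene lists and tests were chosen with earlier results of these data known. Genes named are EP300, CREBBP and HDACs, up to 12 greatest rises and 12 greatest falls (called, mean of at least 1 CPM, no overlap), up to 6 each way with the smallest p, up to 3 per list, up to 4 each way for the interaction and for the day 30 sets. Fewer were named where the text needed fewer, and some are not reported here. Total counts per library ran between 61937591 and 82475298. Alternatives were DESeq2 1.42.0, RLE scaling, other filters, a 2-fold minimum, a host marker covariate, a replicate block, separate fits and leaving out each library.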

Additional observations from a re-analysis of the deposited data

Results flagged for a closer look

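The interaction is the SAHA effect in het1 minus that in WT on the log2 scale. It was called for 1066 genes, 4.72% of those tested, and for 62 of the 100 named genes (edgeR, adjusted p under 0.05). Many named genes were picked for their change in het1 and some for the interaction itself. The share among named genes therefore follows in part from the choice. A positive value means a more positive change in het1. Values above 0 were 3.17 for PPM1E, 2.76 for NGFR, 2.58 for RPS6KA2, 2.43 for CORO1A, 1.96 for HAP1, 1.91 for KLHL29, 1.9 for UNC5B, 1.78 for TNS4 and 1.6 for AMOT. Next came 1.58 for SLC17A7, 1.52 for C11orf86, 1.38 for IGSF9, 0.964 for WDR19, 0.96 for FLRT3, 0.869 for DUSP1, 0.851 for COTL1, 0.808 for ID3 and 0.781 for CALCOCO1. Smaller positive values were 0.709 for CLDN4, 0.571 for H1F0, 0.553 for H1FX, 0.529 for HSPA2, 0.419 for TIMP2, 0.402 for MAP1LC3B and 0.393 for ATP6V0D1.

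Values below 0 were -3.39 for SERPINB11, -2.75 for OR51E1, -2.33 for SLC17A4, -1.76 for SLC17A3, -1.57 for VSIG1, -1.51 for ADGRG5, -1.36 for TINAG, -1.32 for PER3, -1.31 for AKR1B10 and -1.19 for FN1. Next to these were -1.15 for C8G, -0.974 for CPLX2, -0.972 for AKR1C1, -0.884 for AKR1C2, -0.861 for AKR1C3, -0.822 for GCLM, -0.803 for KCTD15, -0.786 for GCLC, -0.748 for STAG1 and -0.697 for HNF4G. Closer to 0 were -0.654 for SIRPA, -0.625 for TTC27, -0.625 for CCND3, -0.622 for UTP20, -0.588 for LRRK1, -0.578 for AJUBA, -0.523 for MTSS1, -0.505 for HNF4A, -0.504 for NCL and -0.503 for TMPO. The least negative were -0.473 for PARP14, -0.439 for CDH1, -0.431 for DKC1, -0.385 for ME1, -0.324 for NCOA3, -0.302 for SIN3A and -0.215 for MTA2.

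In 9 of 200 groups of 4 libraries examined (4.5%), 1 library stood far from the others, where chance gives about 1 in 20. EP300 was at 136 CPM in SAHA replicate 3 and at 117 to 119 CPM in the other SAHA tumours. PPM1E had 0.715 CPM in DMSO replicate 4 and 0.494 to 0.530 CPM in the other DMSO tumours. CALCOCO1 had 85.8 CPM in SAHA replicate 6, below 94.1 to 94.9 CPM in the rest, and THY1 had 4.63 CPM in SAHA replicate 1, above 3.5 to 3.65 CPM. DMSO replicate 5 stood apart at 5 genes. It was high for SLC17A3 (6.06 CPM), SLC13A2 (4.43 CPM) and TINAG (5.35 CPM), and low for IFIT2 (8.66 CPM) and OAS3 (129 CPM). No explanation was tested.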

How the results depend on the processing

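Of 1597 values of 100 named genes under alternative settings, 1421 kept direction and side of the threshold, 174 were no longer called, 2 (both CDKN1A) became called and 0 turned round. Among 97 called genes, 13 lost the call in some fit without 1 library and 39 in some other setting, the replicate block included and the 2-fold minimum left aside. The cause was not tested. The het1 count of 3801 was 3778 with RLE scaling, 4502 with DESeq2, 3061 without a filter, 3476 at 1 CPM or more, 3033 with the host marker covariate, 567 with a 2-fold minimum, 5178 in a fit of the 8 het1 tumours alone and 2731 to 3355 without 1 library. Raised genes were 45.6% of the calls, against 51.3% in the 8 tumours alone and 77.1% with the 2-fold minimum.

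The WT count of 0 was 151 with DESeq2, 36 without a filter, 18 with the host marker covariate and 0 to 170 without 1 library. The interaction count of 1066 was 1803 with DESeq2, 216 with a 2-fold minimum and 542 to 1677 without 1 library. Of genes higher in het1 at day 30, those that rose (352) numbered 153 with a 2-fold minimum, 234 with the host marker covariate, 627 in the 8 tumours alone and 228 to 288 without 1 library, and those that fell (61) numbered 10, then 119 in the 8 tumours alone, and 43 to 55. Of genes lower in het1, those that rose (157) numbered 59 with a 2-fold minimum, 236 in the 8 tumours alone and 110 to 140 without 1 library, and those that fell (210) numbered 79 and 136 to 216. Lowered NRF2 targets (17) numbered 2 with a 2-fold minimum and 13 to 16 without 1 library, and raised genes of the HDAC inhibitor list (8) numbered 1, then 13 in the 8 tumours alone, and 7 to 8.

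SAHA and DMSO groups of het1 share only replicate numbers 2 and 3, whose libraries did not deviate together (r = -0.0604 and 0.00982 across genes). Libraries with unlike numbers had r between -0.0976 and 0.0932. The labels do not say whether the numbers pair samples, and so few pairs cannot decide it. With the replicate block, which leaves fewer libraries informative, the counts were 812 in het1, 19 for the interaction, 63 and 13 for genes higher in het1 at day 30 that rose and fell, 50 and 57 for genes lower in het1, 9 for NRF2 targets and 3 for the HDAC inhibitor list. The WT fits without 1 library, the separate WT fit, and the day 30 and list counts under these settings were chosen after seeing the data. Changes in genes under 1 CPM are limited by depth.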

Other observations

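Further gene lists in het1 tumours are given as counts and medians, against 7.68% of all genes raised, 9.15% lowered and a median of 0.0165. Of 22 cholesterol synthesis genes 3 rose and 1 fell (median log2FC 0.0721), of 13 WNT targets 2 rose and 2 fell (median -0.119), and of 20 neuroendocrine and neuronal genes 2 rose and 0 fell (median 0.117). Of 15 genes of MHC class I presentation 0 rose and 3 fell, with a median of -0.17 in het1 and -0.214 in WT, and of 9 class II genes 1 rose (median 0.386). Of 26 hypoxia and glycolysis genes 4 fell and of 22 unfolded protein response genes 3 fell, with 0 raised in both lists. Of 24 p53 targets 1 rose and 3 fell, of 23 apoptosis regulators 2 rose and 2 fell, and of 20 DNA repair genes 2 rose and 1 fell. The 22 collagen and basement membrane genes had 1 rise and 1 fall, with 19 of 22 log2FC values positive and a median of 0.412 in het1 and 0.117 in WT. The summed level of fibroblast markers was higher in the same SAHA tumours, and the part of host tissue in that median was not tested.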
